A study of Mus musculus with 16 samples.

Results

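The cathepsins described here are 10 of the 32285 genes in the count matrices, chosen by symbol: Ctsa, Ctsb, Ctsc, Ctsd, Ctse, Ctsh, Ctsk, Ctsl, Ctss and Ctsz. All 10 symbols were found. They were read in single nuclei from mouse hippocampus, by cell class and by genotype. The mice were female and aged 9 months, and per the labels they fell into 4 groups of 4 libraries: Ch25h+/+ mice with tau (Tau+) or without it (Tau-), and Ch25h-/- mice, again either Tau+ or Tau-. Ch25h encodes cholesterol 25-hydroxylase, the enzyme that makes 25-hydroxycholesterol, and the study's title places it between innate immune signalling and tau pathology. The tau line, the promoter that drives it and the way the Ch25h allele was made are not given in the sources used here.

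Cathepsins are the main proteases of the endosome and lysosome. They are made as inactive precursors, are sorted to lysosomes largely through mannose 6-phosphate tags, and are activated at acid pH, which the V-ATPase proton pump maintains. Ctsb, Ctsc, Ctsh, Ctsk, Ctsl, Ctss and Ctsz encode cysteine proteases, Ctsd and Ctse encode aspartic proteases, and Ctsa encodes a serine carboxypeptidase that also protects other lysosomal enzymes. In brain, microglia and other macrophages are rich in several of them, and cathepsins S, E and L also take part in preparing antigen for MHC class II.

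The 16 libraries held 51270831 to 84870650 unique molecular identifiers (UMIs) each. Of 147873 barcodes with at least 500 UMIs, at least 300 genes and at most 5% mitochondrial UMIs, 11045 were scored as doublets and removed, and 136828 nuclei were kept (7601 to 10567 per library). Of these, 119537 fell into 16 classes named by markers, and 8.11 to 18.3% of a library's nuclei stayed unnamed. Any 2 libraries shared 8 to 36 barcodes, and 2321 of 134477 distinct barcodes occurred in 2 or more. Ch25h itself was read as a check of the labels, with 8 to 36 UMIs in each library. Counted over all nuclei, as counts per 1e+06 UMIs (CPM), the Ch25h+/+ groups averaged 0.474 ± 0.210 with tau and 0.195 ± 0.0382 without. The Ch25h-/- groups averaged 0.451 ± 0.111 with tau and 0.348 ± 0.101 without (SD, n = 4), so the genotypes did not differ beyond the spread with tau, and without tau the Ch25h-/- mean was the higher. In microglia it had 32 UMIs in Ch25h+/+ Tau+ (20, 5, 0 and 7 in replicates 1 to 4), 7 in Ch25h-/- Tau+ (4, 1, 1 and 1) and 0 in both Tau- groups, so replicate 1 held most of the 32. Which part of the gene was deleted is not given in the sources used here, and 3' reads outside that part would not check the genotype. Every statement on Ch25h genotype below rests on the labels alone, and Ch25h-/- below always means labelled so. The labels give no batch, but in each group replicates 1 and 2 stood apart from replicates 3 and 4 along the first principal component for 15 (microglia) or 16 (4 other classes) of 16 libraries. This split is called batch 1 and batch 2, and values within each are given where they bear on a result.

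The starts of 7 of the 10 genes were covered by RefSeq promoter windows (GRCm38.p6), which run from 250 bases before to 50 bases after the start. Ctsa had 2 windows, and Ctsb, Ctse and Ctsh had none. The windows were searched on both strands for CACGTG, the core of the lysosomal (CLEAR) element bound by TFEB, TFE3 and MITF, for GAGGAAG, a PU.1-type site of myeloid cells, and for an interferon-stimulated response element, searched as 2 repeats of GAAA that are 2 bases apart. CACGTG occurred in 7.15% of all 32851 windows, GAGGAAG in 13.6% and the interferon-type motif in 3.44%. None of the 3 overlaps another in the members' windows. CACGTG was found in Ctsd, Ctsl and the second window of Ctsa, GAGGAAG in Ctsc, Ctsk and Ctss, and the interferon-type motif in Ctss. None of the 3 was found in Ctsz or in the first window of Ctsa. A match of letters describes the sequence and is not evidence of binding. The CACGTG matches before the RefSeq start are shown first with up to 12 bases on each side, since they are shared by genes with separate protein folds, and the matched letters are in capitals. They lie on GRCm38.p6 at chr7:142388055-142388077 and chr7:142387908-142387937 (both minus strand, Ctsd), chr2:164833749-164833772 (plus strand, Ctsa) and chr13:64370739-64370768 (minus strand, Ctsl).

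Ctsd, distal: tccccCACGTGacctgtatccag
Ctsd, proximal: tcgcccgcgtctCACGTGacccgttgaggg
Ctsa, second window: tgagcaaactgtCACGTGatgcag
Ctsl: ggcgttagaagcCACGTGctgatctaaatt

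The 250 bases before the start of Ctss (chr3:95526536-95526785, plus strand) and Ctsc (chr7:88277835-88278084, plus strand) are shown because these genes hold the interferon-type match and a pair of PU.1-type matches. Capitals mark GAAACCGAAA in Ctss and CTTCCTC, the reverse complement of GAGGAAG, in Ctsc. The PU.1-type match of Ctss crosses the start and is not in the stretch shown. Ctsk also holds a pair of PU.1-type matches before its start, which are not shown.

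Ctss: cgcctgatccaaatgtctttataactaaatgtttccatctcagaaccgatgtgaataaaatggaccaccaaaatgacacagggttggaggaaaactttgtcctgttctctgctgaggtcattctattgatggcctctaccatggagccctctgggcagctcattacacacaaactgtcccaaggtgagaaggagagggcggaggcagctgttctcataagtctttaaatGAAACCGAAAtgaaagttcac
Ctsc: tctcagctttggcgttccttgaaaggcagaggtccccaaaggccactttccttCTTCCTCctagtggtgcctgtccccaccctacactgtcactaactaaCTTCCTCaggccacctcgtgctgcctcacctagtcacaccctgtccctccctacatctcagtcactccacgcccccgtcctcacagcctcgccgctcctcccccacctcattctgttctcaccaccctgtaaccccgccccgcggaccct

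The genes lie on 7 chromosomes (GENCODE M21, GRCm38): Ctsa at 2:164832873-164841032, Ctsb at 14:63122462-63145923, Ctsc at 7:88278085-88310888, Ctsd at 7:142375911-142388038, Ctse at 1:131638306-131675505, Ctsh at 9:90054152-90076089, Ctsk at 3:95499256-95509362, Ctsl at 13:64359337-64370890, Ctss at 3:95526786-95556403 and Ctsz at 2:174427493-174439039. Ctsk and Ctss are neighbours on chromosome 3. The RefSeq start lies within the GENCODE gene for Ctsd, Ctsl and the second window of Ctsa. Of the 250 bases before it, 211, 48 and 164 lie in exons of the same gene in GENCODE. For Ctsk the 250 bases end at 3:95499209, and the GENCODE gene starts only at 95499256. Of the CACGTG matches shown, the distal one of Ctsd lies before the GENCODE gene, and the other 3 lie within it. Exons of Ctsa overlap Neurl2 and Pltp on the opposite strand, those of Ctsb overlap Fdft1, those of Ctsl overlap Gm47123 and those of Ctsz overlap Nelfcd. Whether the authors' counting used strand is not given in the sources used here. Counts of these 4 members are therefore less certain than those of Ctse, Ctsh and Ctsk, which overlap no annotated gene. On the same strand, exons of Ctsd overlap Gm49369 and those of Ctsl overlap Gm49230, and neither gene is in the count matrices. Ctsc and Ctss overlap annotated genes, but not in exons.

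Across cell classes, 9 of the 10 genes were highest in microglia or in border-associated macrophages, the macrophages of the meninges and vessel walls. Levels are given in CPM of the class, summed over all 16 libraries, with the 95% exact Poisson interval of the summed count, which covers counting error only. They are compared between classes within a gene and not between genes. Microglia formed 1 cluster of 5801 nuclei, in which all 12 markers of that class were raised, Cx3cr1, P2ry12 and Tmem119 among them. Border-associated macrophages numbered 449 nuclei, and 10 libraries held at least 20 of them. None of the cathepsins served as a marker of a class or was among the variable genes used for clustering. The classes still come from clustering of the same nuclei, so levels by class are a description and carry no test.

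Microglia had the highest level of Ctsa, Ctsd, Ctsh, Ctsl, Ctss and Ctsz. Ctsd, the main aspartic protease of lysosomes, read 861 CPM (842 to 880) in microglia, 257 (222 to 297) in border-associated macrophages and at most 75.1 in any other class. Over libraries with at least 20 nuclei, the microglial values of Ctsd (555 to 1097 CPM) lay above all those of border-associated macrophages (145 to 441). Ctss, an elastinolytic protease that cuts the invariant chain of MHC class II, read 929 CPM (909 to 949) in microglia and 448 (401 to 499) in border-associated macrophages. In every other class it read at most 7.63 CPM. The share of free RNA was estimated from barcodes under 100 UMIs, scaled by markers of other classes. It is an upper estimate, cut at 100%. By it, free RNA could account for up to 100% of the Ctss UMIs in all neuron classes, oligodendrocytes and oligodendrocyte precursors (OPCs). In microglia it could account for up to 0.65%.

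Ctsh, an aminopeptidase, read 296 CPM (285 to 308) in microglia, 206 (174 to 241) in border-associated macrophages and 140 (115 to 169) in endothelial cells. It read 67.2 in ependymal cells, 61.2 in fibroblasts and at most 0.42 in the 4 tested neuron classes. Per library, Ctsh averaged 270 ± 79.9 CPM in microglia (SD, n = 16), 230 ± 82.8 in border-associated macrophages (n = 10) and 190 ± 50.3 in endothelial cells (n = 6), so neighbouring classes in that order did not differ beyond their spread. Ctsz, a carboxypeptidase also called cathepsin X, read 300.3 CPM (289 to 312) in microglia and 169 (140 to 201) in border-associated macrophages. Ctsa read 164 CPM (155 to 172) in microglia and 132 (107 to 161) in border-associated macrophages, and their means over libraries were both 154 CPM. Ctsl, a broad endopeptidase, read 161 CPM (153 to 169) in microglia, 95.4 (88.2 to 103) in fibroblasts and 76.8 in newly formed oligodendrocytes. Its means of 147 ± 66.0 CPM in microglia (n = 16) and 92.4 ± 35.7 in fibroblasts (n = 15) overlapped in their spread.

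Border-associated macrophages had the highest level of Ctsb, Ctsc and Ctse. Ctsc, which activates the serine proteases of immune cells, read 704 CPM (645 to 767) there and 265 (254 to 276) in microglia. The 10 libraries of border-associated macrophages (528 to 1010 CPM) all lay above the 16 microglial ones (145 to 358). Ctsb, an abundant endopeptidase and dipeptidase, read 580 CPM (526 to 638) in border-associated macrophages and 371 (359 to 384) in microglia, with ranges over libraries that overlapped. Ctse, an endosomal aspartic protease of immune cells, read 43.6 CPM (29.8 to 61.5, from 32 UMIs) in border-associated macrophages and 25.4 (22.2 to 28.9) in microglia. In no other class did Ctse exceed 0.45 CPM.

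Ctsk, the collagenase of bone-resorbing osteoclasts, was the exception. It read 21.3 CPM (18.005 to 25.05) in fibroblasts, 11.1 in oligodendrocytes and 10.1 in Cajal-Retzius cells. Microglia held 18 Ctsk UMIs (1.995 CPM) and border-associated macrophages none, where a count of 0 allows up to 4.09 CPM. Ctsc also stood out among neurons, with 10.3 CPM (9.63 to 10.96) in inhibitory neurons against 0.79 to 1.92 in the 3 excitatory classes. By the same upper estimate, free RNA could account for up to 4.54% of the Ctsc UMIs in inhibitory neurons. In granule neurons of the dentate gyrus (DG) it could account for up to 100%.

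Microglia made up 4.85% of the named nuclei and held 83.1% of the Ctss UMIs in named nuclei, 74.1% of Ctse, 68.3% of Ctsh, 44.1% of Ctsc, 37.1% of Ctsd and 36.9% of Ctsz. They held 11.2% of Ctsb, 10.0% of Ctsa, 7.56% of Ctsl and 1.03% of Ctsk. Other classes thus held most UMIs in named nuclei of the 7 genes other than Ctss, Ctse and Ctsh.

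**Figure D1:**
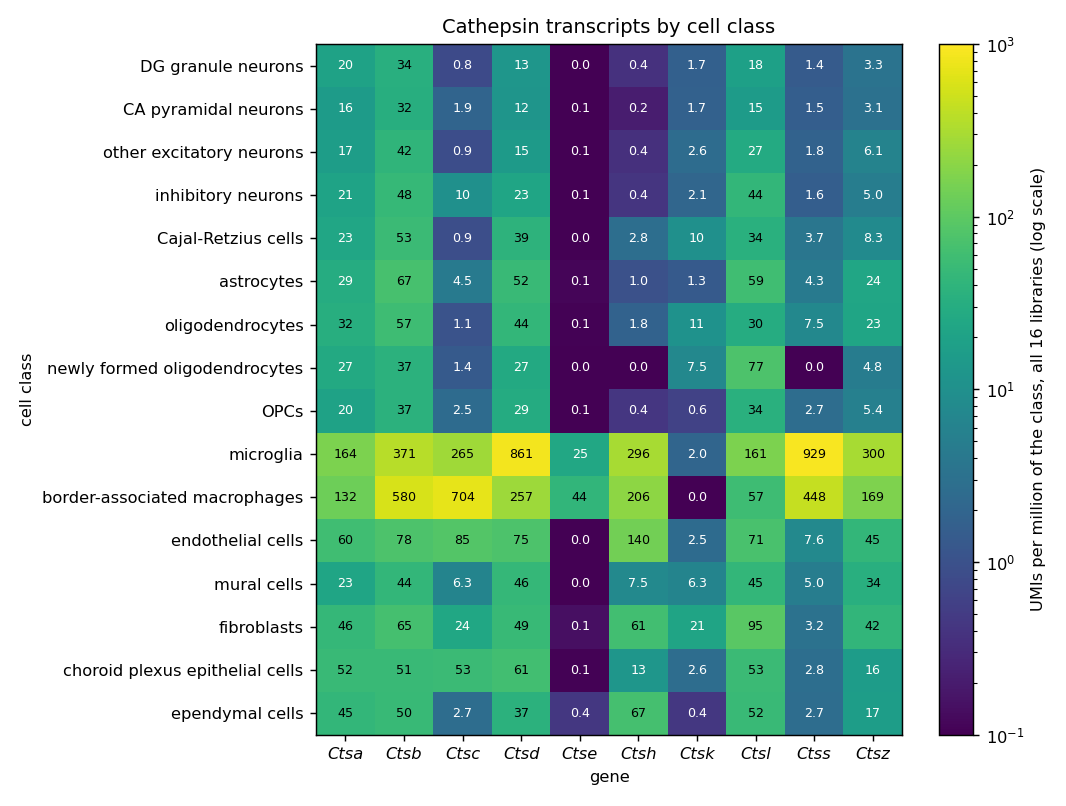
Cathepsin transcripts in 16 cell classes. Rows are classes, columns are the 10 genes, and colour and printed values give CPM of the class over all 16 libraries, on a log colour scale. The rows of microglia and border-associated macrophages hold the highest value of every gene but Ctsk, which reads 21 in fibroblasts.

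In microglia, Ctsh rose with tau among Ch25h+/+ libraries and among libraries labelled Ch25h-/-. In neither genotype did the Ctsh values of the 2 groups overlap, as for 3.5% and 4.64% of all genes tested with Tau+ the higher. Ctse also read higher in Tau+, but it entered the test only through those libraries, and its values are given as a description. Counts were summed per library, scaled by TMM and tested with edgeR's quasi-likelihood test over 8455 genes, with Benjamini-Hochberg adjustment and calls at an adjusted p under 0.05. Of the 10 genes 9 passed the filter on low counts, and Ctsk did not. Ctse passed only through Tau+ libraries, of which 6 of 8 reached the filter's level of 20.2 CPM and none of the 8 Tau- libraries did, so a tested Ctse had to differ. The other 8 reached it in all 16 libraries. Called higher with tau was 1 of these 8, Ctsh, in Ch25h+/+, where 1.49% of all genes tested were called higher, and the same gene in the libraries labelled Ch25h-/-, where 1.17% were. None of the 8 was called lower, against 0.875% and 0.414% of all genes, and in either direction 2.37% and 1.58% of all genes were called. These 200 and 134 genes became 433 and 315 with a batch term. They ran from 23 to 544 and from 23 to 363 with 1 library left out, and moved by over 1.5 times without any 1 of the 8 libraries compared, and in Ch25h-/- also without Ch25h+/+ Tau+ replicate 3.

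Ctsh read 361, 336, 276 and 376 CPM in Ch25h+/+ Tau+, and 199, 171, 218 and 221 in Ch25h+/+ Tau-. Among Ch25h-/- libraries Ctsh read 324, 369, 344 and 428 CPM with tau, and 185, 220, 236 and 235 without. All 8 Tau+ libraries thus lay above all 8 Tau- libraries, as for 0.497% of all genes tested. The group means were 337 ± 44.0 against 202 ± 22.9 CPM in Ch25h+/+ and 367 ± 45.2 against 219 ± 23.6 in Ch25h-/- (SD, n = 4 each). The log2 fold change of Ctsh was 0.76 (SE 0.138, edgeR adjusted p = 0.00800) in Ch25h+/+ and 0.74 (SE 0.134, edgeR adjusted p = 0.00747) in Ch25h-/-. Its call held in each of the 16 fits that left out 1 library, in both genotypes.

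Ctse read 47.5, 43.5, 8.81 and 62.1 CPM in the 4 Ch25h+/+ Tau+ libraries, and 4.74, 5.35, 0 and 0 in Ch25h+/+ Tau-. Among Ch25h-/- libraries Ctse read 31.7, 30.1, 14.1 and 40.2 CPM with tau, and 7.62, 0, 7.98 and 0 without. The lowest Tau+ library in each genotype was replicate 3, and each still lay above every Tau- library of its genotype. The counts were small, with 134 and 4 UMIs in the Ch25h+/+ Tau+ and Tau- groups and 86 and 5 in the groups labelled Ch25h-/-. The ratio of the levels from these sums was 15.4 in Ch25h+/+ (95% exact interval 5.87 to 57.3) and 9.32 in Ch25h-/- (3.84 to 29.4), intervals that cover counting error only. With the filter's choice of Ctse in view, its fitted log2 fold change was 3.74 (SE 0.716, edgeR adjusted p = 0.0121) in Ch25h+/+ and 3.08 (SE 0.714, edgeR adjusted p = 0.0334) in Ch25h-/-. Leaving out Ch25h+/+ Tau- replicate 3 ended the first call (adjusted p = 0.0503). The second was lost without any 1 of 7 of the 8 libraries labelled Ch25h-/-, all but Tau+ replicate 3. Over the 16 fits that left out 1 library, the log2 fold change of Ctse in Ch25h-/- ran from 2.54 to 3.91 (edgeR adjusted p up to 0.142).

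Within batch 1 the log2 fold changes of Ctsh with tau were 0.92 and 0.78, in Ch25h+/+ and Ch25h-/- in turn, and both were called. Within batch 2 they were 0.60 and 0.72, and neither was called. For Ctse, which passed the filter only through Tau+ libraries, the values are a description. They were 3.15 and 3.16 in batch 1, both called, and 7.16 and 2.99 in batch 2, neither called. With 2 libraries per group, batch 1 alone called 422 of 9773 genes in Ch25h+/+ and 399 in Ch25h-/-. Batch 2 alone called 0 of 7568 genes in Ch25h+/+ and 1 in Ch25h-/-. In Ch25h+/+ Tau- both batch 2 libraries had no Ctse UMI, so that fitted Ctse fold change depends on the prior count.

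Microglial nuclei were deeper in the Tau+ groups, with a median of 1634.5 UMIs in Ch25h+/+ Tau+ against 1151 in Ch25h+/+ Tau-, and 1633.5 against 1299.5 in the groups labelled Ch25h-/-. Nuclei were therefore also thinned to 1000 UMIs each, and shallower ones were left out. This kept 1596 of 1746 microglia in Ch25h+/+ Tau+ and 722 of 1137 in Ch25h+/+ Tau-. In the groups labelled Ch25h-/- it kept 1532 of 1728 with tau and 899 of 1190 without, so more nuclei were left out without tau. Of the thinned nuclei, 27.0% held a Ctsh UMI in Ch25h+/+ Tau+ and 14.5% in Ch25h+/+ Tau-, and 30.3% and 18.8% did in the groups labelled Ch25h-/- Tau+ and Tau-. Unthinned, these shares were 41.2%, 19.1%, 42.1% and 23.7%. For Ctse the thinned shares were 4.14% and 0.28% in Ch25h+/+ and 2.09% and 0.33% in Ch25h-/-, and the unthinned ones 6.41%, 0.35%, 3.76% and 0.34%. The thinned shares followed the same order as the CPM. In thinned DG granule neurons, which should lack both genes, 0.08% of nuclei held a Ctsh UMI and none of 6000 a Ctse UMI, which allows up to 0.05%.

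Markers of other cell types were also read in the microglial sums, as 17 lists that exclude the cathepsins. Between group means, 6 lists were higher with tau in both genotypes, 8 were lower in both and 3 were mixed. Among the higher ones, the 11 oligodendrocyte markers averaged 401 CPM in Ch25h+/+ Tau+ (309 to 504) against 379 in Tau- (332 to 458), and 400.04 (345 to 502) against 235 (137 to 302) in Ch25h-/-. The 7 markers of newly formed oligodendrocytes averaged 1233 (1147 to 1302) against 1064 CPM (936 to 1127), and 1178 (1044 to 1301) against 1116 (972 to 1228). The 7 choroid plexus markers averaged 325 (197 to 377) against 200.2 CPM (12.4 to 333), and 166 (6.39 to 340) against 157 (18.2 to 290). The lists of Cajal-Retzius cells, OPCs and endothelial cells were the other 3 that were higher.

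Lower with tau in both genotypes were the 4 other neuron lists, astrocytes, mural cells, fibroblasts and border-associated macrophages. The 9 markers of border-associated macrophages averaged 215 CPM in Ch25h+/+ Tau+ (177 to 303) and 292 in Ch25h+/+ Tau- (255 to 377), and 198 (173 to 237) against 264 (237 to 299) in Ch25h-/-. Of the 7 T cell markers 5 were at 0, with group means of 1.33 to 5.98 CPM, and of the 6 markers of neutrophils and monocytes 1 was at 0, with means of 10.4 to 24.996 CPM. Of the lists given with values, the others had no marker at 0. The part of these cell types in the result was not tested.

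The other 7 genes had positive log2 fold changes with tau in both genotypes, and none passed the test. With Ctsh and without Ctse, the median of 8 was 0.33 in Ch25h+/+ and 0.56 in Ch25h-/-, beside medians of -0.01 over all genes tested in each. Without adjustment, 3 of the 8 in Ch25h+/+ and 5 in Ch25h-/- had p under 0.05, against 1281 and 1188 of the 8455 genes. Ctsb averaged 447 ± 139 CPM in Ch25h+/+ Tau+ and 284 ± 49.6 in Ch25h+/+ Tau- (SD, n = 4), a log2 fold change of 0.67 (SE 0.267, edgeR adjusted p = 0.229). In the groups labelled Ch25h-/- it averaged 408 ± 127 and 205 ± 52.9 CPM, a log2 fold change of 0.996 (SE 0.272, edgeR adjusted p = 0.0801). In both genotypes the Tau+ value of replicate 3 (264 and 228 CPM) lay within the range of the Tau- libraries.

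Ctsc averaged 315 ± 64.1 against 227 ± 34.2 CPM in Ch25h+/+, a log2 fold change of 0.50 (SE 0.159, edgeR adjusted p = 0.0903). In the groups labelled Ch25h-/- it averaged 280 ± 27.9 against 206 ± 38.9 CPM, with a log2 fold change of 0.45 (SE 0.159, edgeR adjusted p = 0.155). Ctsz had log2 fold changes of 0.41 (SE 0.205) and 0.58 (SE 0.204), and Ctsa 0.25 (SE 0.179) and 0.56 (SE 0.180). Their groups overlapped in both genotypes.

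For Ctss, Ctsd and Ctsl the groups also overlapped in both genotypes. Ctss averaged 1008 ± 119 CPM in Ch25h+/+ Tau+ and 907 ± 142 in Ch25h+/+ Tau-, and 1025 ± 178 and 844 ± 137 in the groups labelled Ch25h-/-. Its log2 fold changes were 0.16 (SE 0.141) and 0.28 (SE 0.141). Ctsd averaged 939 ± 213 against 924 ± 191 CPM in Ch25h+/+ and 871 ± 81.6 against 716 ± 163 in Ch25h-/-, with log2 fold changes of 0.03 (SE 0.173) and 0.29 (SE 0.174). Ctsl varied widely between libraries of 1 group, from 52.9 to 262 CPM in Ch25h+/+ Tau+ alone. Its log2 fold changes were 0.15 (SE 0.462) and 0.56 (SE 0.465). Simulated microglial counts with known changes had 19 of 50 genes with a 2-fold rise called and 50 of 50 with a 4-fold rise. Of simulated falls, 9 of 44 genes at 0.5 times and 40 of 43 at 0.25 times the level were called. A smaller change, above all a fall, could thus pass unseen at this depth.

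**Figure D2:**
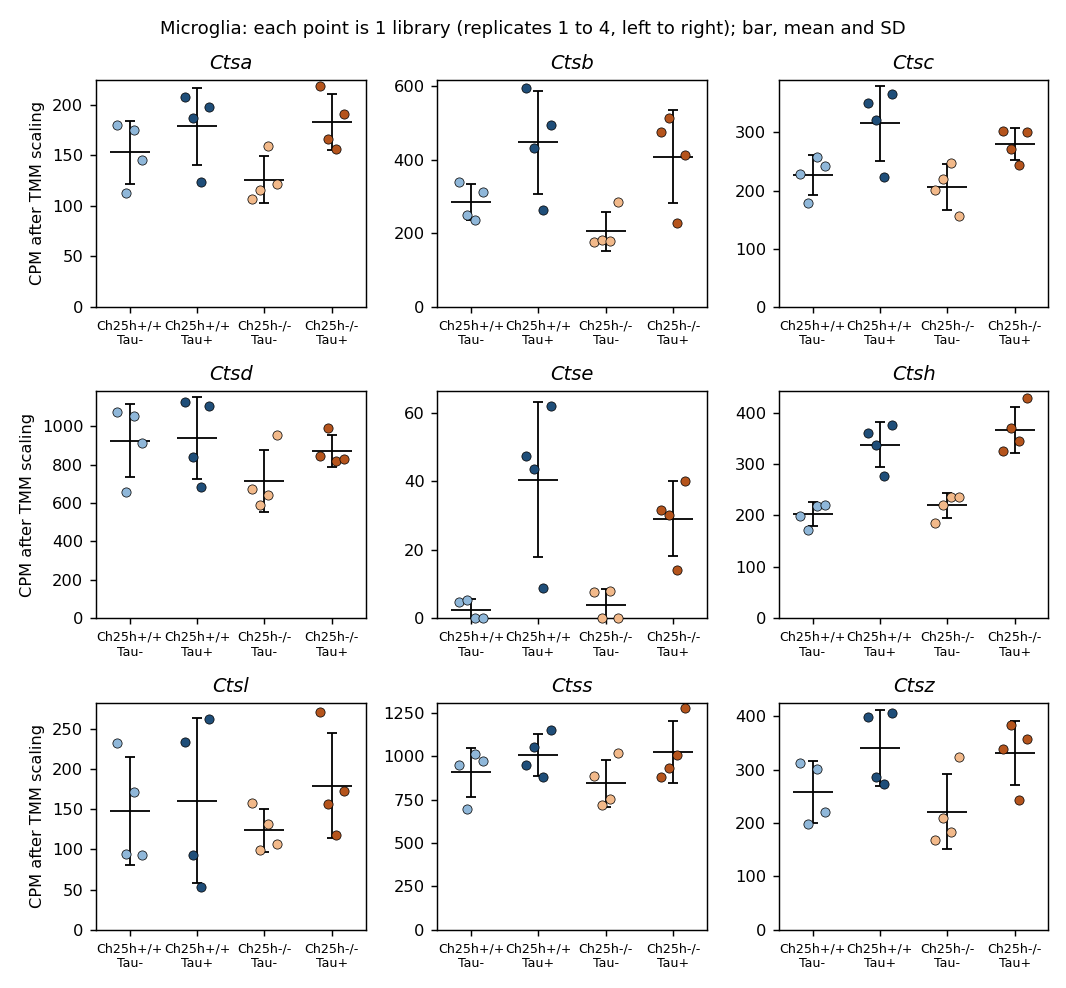
The 9 tested cathepsins in microglia. Each point is 1 library, in CPM after TMM scaling on a linear axis from 0, for the 4 groups on the horizontal axis, and bars give the mean and SD of 4 libraries. For Ctsh every Tau+ library (276 to 428) lies above every Tau- library (171 to 236), as for 0.497% of all genes tested. For Ctse the same holds within each genotype, but it passed the filter on low counts only through Tau+ libraries.

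The loss of Ch25h was compared within each tau state, as labelled Ch25h-/- minus Ch25h+/+. No cathepsin was called in microglia. Among Tau+ libraries the log2 fold changes ran from -0.57 (Ctse, SE 0.385) to 0.11 (Ctsh, SE 0.126), with 4 of 9 positive and a median of -0.05. None of the 9 had an unadjusted p under 0.05, the lowest being 0.151 (edgeR, 2-sided). Among Tau- libraries they ran from -0.47 (Ctsb, SE 0.288) to 0.12 (Ctsh, SE 0.147), with 2 of 9 positive and a median of -0.23. Ctsd alone had an unadjusted p under 0.05 there (0.0499, edgeR adjusted p = 1), with a log2 fold change of -0.37 (SE 0.177). The background was 0% of 8455 genes called in both comparisons, with 265 and 274 genes at an unadjusted p under 0.05. By DESeq2, 1 gene was called in Tau+ and 0 in Tau-, and no cathepsin in either.

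The tau effects of the 2 genotypes were also compared with each other, in an interaction term. None of the 9 differed by edgeR at an adjusted p under 0.05, nor at an unadjusted p under 0.05, and 0% of all genes were called, with 297 at an unadjusted p under 0.05. DESeq2 called 0 genes as well. For Ctsh the difference between the tau effects was -0.01 on the log2 scale (SE 0.192). For Ctse it was -0.66 (SE 1.37) and for Ctsl 0.41 (SE 0.657), so that large differences in either direction lie within the error for these 2 genes.

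**Figure D3:**
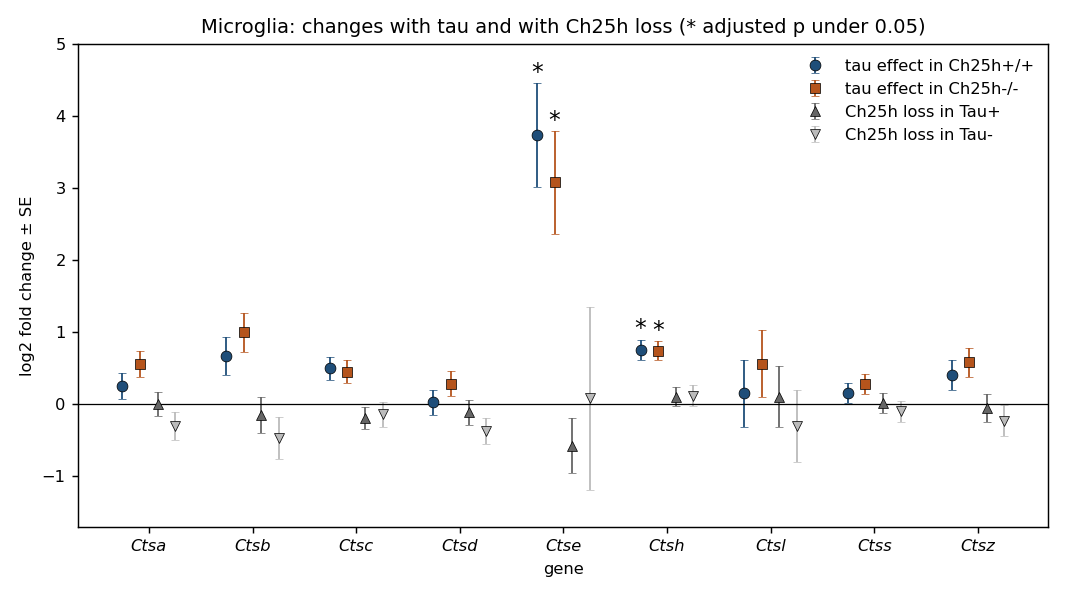
Log2 fold changes of 9 cathepsins in microglia with their SE, for the tau effect in each Ch25h genotype and for Ch25h loss in each tau state (4 libraries per group). Stars mark an adjusted p under 0.05 and stand over the tau effects of Ctsh (0.76 and 0.74) and of Ctse (3.74 and 3.08), which passed the filter on low counts only through Tau+ libraries.

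The microglia were next split by activation transcripts, a list of 9 genes of disease-associated microglia (Axl, Lpl, Cst7, Itgax, Csf1, Spp1, Gpnmb, Igf1 and Lgals3). Each nucleus was first thinned to 1000 UMIs, and shallower nuclei were left out, more of them without tau. A nucleus counted as having activation transcripts when at least 1 UMI of the list remained, which is a range and not a cell type. Their share was 2.54 to 41.7% in Ch25h+/+ Tau+ libraries and 6.65 to 31.1% in those labelled Ch25h-/- Tau+, against 1.02 to 4.48% and 0 to 3.02% without tau. Replicate 3 was the lowest Tau+ library in both genotypes (2.54% and 6.65%), as it was for Ctse.

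In the 7 Tau+ libraries with at least 10 nuclei of each kind (Ch25h+/+ Tau+ replicate 3 had 5), Ctsb, Ctsc, Ctsd, Ctse, Ctsh and Ctsz were higher in nuclei with activation transcripts in 7 of 7, as were 3.18% of 8013 genes outside the list that averaged 10 or more UMIs in a library. Ctsb averaged 647 ± 107 CPM with and 368 ± 95.6 without activation transcripts (SD, n = 7). Ctse averaged 75.6 ± 35.5 CPM with (58 UMIs) and 20.7 ± 11.6 without (45 UMIs). Ctsh averaged 449 ± 95.4 and 334 ± 47.3 CPM, Ctsz 446 ± 59.9 and 312 ± 59.7, Ctsc 396 ± 39.8 and 291 ± 36.7, and Ctsd 1130 ± 150 and 886 ± 116. Ctsa was higher in 4 of 7 libraries, Ctsl in 5 of 7 and Ctss in 3 of 7, with Ctss means of 1070 ± 188 and 1061 ± 117 CPM. The split uses transcripts of the same nuclei, so these values are a description and were not tested.

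In nuclei without activation transcripts after thinning, which may include activated nuclei, Ctsh ran from 271 to 418 CPM (median 325) in the 8 Tau+ libraries and from 144 to 240.0 (median 200) in the 8 Tau- libraries, with no overlap, as for 0.175% of the 8013 genes. The part of the activated share in the tau effect was not tested. Ctse ran from 3.096 to 39.5 CPM in Tau+ and from 0 to 13.6 in Tau-, from 46 and 4 UMIs. Ctsb (201 to 484 against 147 to 320 CPM), Ctsc (214 to 326 against 147 to 294) and Ctss (833 to 1269 against 655 to 938) overlapped between the tau states.

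**Figure D4:**
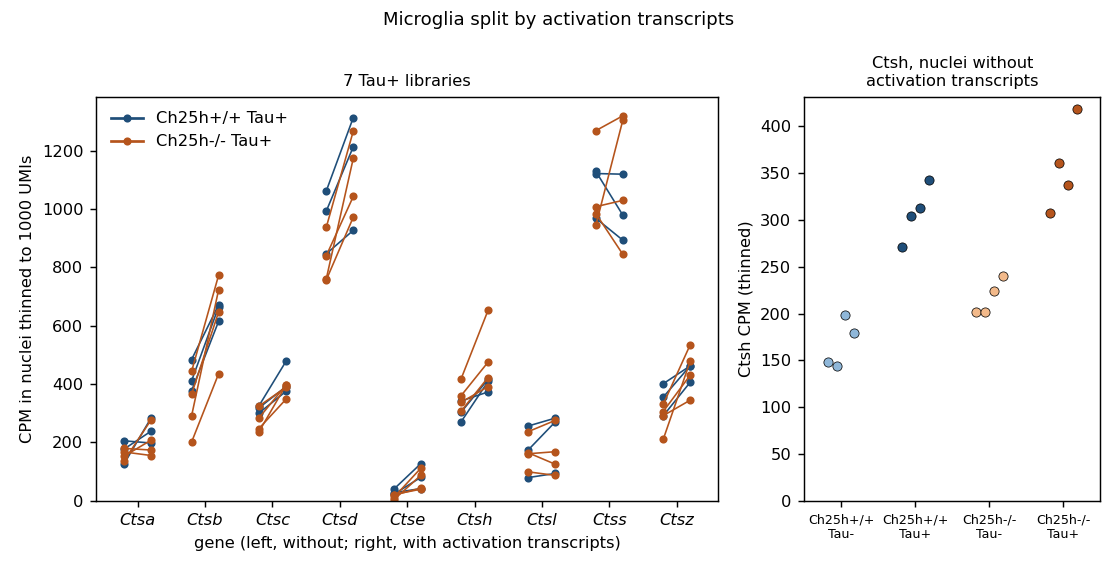
Cathepsins in microglia thinned to 1000 UMIs, with shallower nuclei left out. Left, CPM of 9 genes without and with activation transcripts, each line joining the 2 values of 1 of 7 Tau+ libraries; right, Ctsh in nuclei without activation transcripts, 1 point per library. Lines rise in all 7 libraries for Ctsb, Ctsc, Ctsd, Ctse, Ctsh and Ctsz, as for 3.18% of 8013 genes. At right every Tau+ point (271 to 418) is above every Tau- point (144 to 240.0), as for 0.175% of these genes.

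Outside microglia, 7 classes had enough nuclei in every library for a test. The members tested numbered 8 in CA pyramidal and inhibitory neurons, 7 in DG granule neurons, other excitatory neurons, astrocytes and oligodendrocytes, and 4 in OPCs, 48 pairs of gene and class in all. None of the 48 was called in any of the 5 comparisons. Over all genes of these classes, called in either direction were 0.0878% for tau in Ch25h+/+, 0.0418% for tau in Ch25h-/-, 0.00523% for Ch25h loss in Tau+, 0.00314% for Ch25h loss in Tau- and 0% for the interaction. For tau in Ch25h+/+ that share was highest in astrocytes, at 0.531%. By edgeR without adjustment, 9 and 8 pairs had p under 0.05 for tau in Ch25h+/+ and Ch25h-/-, and 1, 2 and 1 for Ch25h loss in Tau+, in Tau- and for the interaction. Over all genes of these classes the same share was 6.11%, 7.56%, 3.19%, 3.51% and 4.13% in that order. The lowest adjusted p of these 5 comparisons were 0.212, 0.323, 0.999, 0.906 and 0.872 in that order.

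Of the 17 pairs at an unadjusted p under 0.05 for tau, 10 were Ctss, all higher with tau. In oligodendrocytes Ctss averaged 9.73 ± 3.62 CPM in Ch25h+/+ Tau+ and 2.71 ± 1.42 in Ch25h+/+ Tau- (SD, n = 4), a log2 fold change of 1.76 (SE 0.412, edgeR adjusted p = 0.363). In inhibitory neurons it averaged 2.96 ± 1.38 against 0.59 ± 0.335 CPM, a log2 fold change of 2.23 (SE 0.492, edgeR adjusted p = 0.733). By the upper estimate, free RNA could account for up to 100% of the Ctss UMIs in both classes and up to 79.4% in astrocytes. Ctsc in astrocytes averaged 5.95 ± 1.62 against 2.57 ± 1.49 CPM in Ch25h+/+ and 6.59 ± 3.11 against 2.73 ± 0.88 in Ch25h-/-. Its log2 fold changes were 1.18 (SE 0.404, edgeR adjusted p = 0.212) and 1.16 (SE 0.402, edgeR adjusted p = 0.342). Free RNA could account for up to 15.9% of the Ctsc UMIs in astrocytes. Ctsk in inhibitory neurons averaged 1.22 ± 0.482 CPM with tau and 2.99 ± 0.427 without it among Ch25h-/- libraries, a log2 fold change of -1.29 (SE 0.330, edgeR adjusted p = 0.589).

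Other genes of the lysosome were read in microglia as lists beside the cathepsins. For the tau effect in Ch25h+/+, no gene of these lists was called lower, and 3 that were called higher are described. Of all genes tested, 0.875% were called lower and 1.49% higher. Gnptab, which encodes the enzyme subunits that begin the mannose 6-phosphate tag, was 1 of 9 tested genes of sorting to lysosomes. It averaged 82.7 ± 33.5 CPM in Tau+ and 21.5 ± 9.55 in Tau- (SD, n = 4), a log2 fold change of 1.999 (SE 0.374, edgeR adjusted p = 0.00992). Atp6v1b2, a subunit of the V-ATPase, was 1 of 14 of that pump, at 191 ± 48.1 against 101 ± 13.5 CPM and a log2 fold change of 0.95 (SE 0.188, edgeR adjusted p = 0.0111). Mitf, a transcription factor of the family that binds the CLEAR element, was 1 of 3, at 849 ± 240 against 478 ± 56.2 CPM and 0.85 (SE 0.180, edgeR adjusted p = 0.0197), with groups that overlapped.

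The calls of these 3 genes held less often than that of Ctsh. Leaving out 1 library at a time ended the call of Mitf in 6 of 16 fits, that of Atp6v1b2 in 2 and that of Gnptab in 1. For Gnptab that library was Ch25h+/+ Tau- replicate 1 (adjusted p = 0.0535), and for Atp6v1b2 they were Ch25h+/+ Tau+ replicates 1 and 4 (adjusted p up to 0.0573). For Mitf they were Ch25h+/+ Tau+ replicates 1, 2 and 4 and Ch25h+/+ Tau- replicates 1, 2 and 3 (adjusted p up to 0.0873).

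None of 13 lysosomal membrane genes, 2 cathepsin inhibitors and 2 other cathepsins was called in that comparison. Neither Ch25h loss nor the interaction called a gene of any of the 7 lists, against 0% of all genes. In the libraries labelled Ch25h-/- the tau effect also called none of them, against 1.58% of all genes. There Mitf averaged 740 ± 154 CPM in Tau+ and 471 ± 27.6 in Tau-, and Atp6v1b2 174 ± 30.1 and 113 ± 16.8. Their log2 fold changes were 0.66 (SE 0.178, edgeR adjusted p = 0.0631) and 0.64 (SE 0.182, edgeR adjusted p = 0.0662). The groups did not overlap for these 2 genes, as for 4.64% of all genes tested with Tau+ the higher. Gnptab there averaged 70.01 ± 22.03 CPM in Tau+ and 47.4 ± 16.4 in Tau-, groups that overlapped, with a log2 fold change of 0.61 (SE 0.316, edgeR adjusted p = 0.404). The median log2 fold change with tau in Ch25h+/+ was 0.22 over the 24 hydrolases and 0.16 over the membrane genes. It was 0.11 over the V-ATPase and 0.02 over the sorting genes. Over the cathepsins it was 0.41 with Ctse, which passed the filter only through Tau+ libraries, and 0.33 without it. In Ch25h-/- these lists had 0.32, 0.06, 0.14 and 0.37 in that order. The cathepsins there had 0.56 with Ctse and 0.56 without it. The 3 factors of the Mitf family had medians of 0.33 and 0.04 in the 2 genotypes, the 2 inhibitors -0.37 and -0.32, and the 2 other cathepsins -0.01 and 0.27. Cst3, which encodes cystatin C, an inhibitor of cysteine cathepsins, had log2 fold changes of -0.80 (SE 0.225, edgeR adjusted p = 0.0733) and -0.50 (SE 0.224, edgeR adjusted p = 0.318).

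Across the 16 microglial sums, each cathepsin had neighbours by Pearson's r of log2 CPM among 8013 genes with a mean of at least 10 UMIs. The libraries share group, batch and depth, so r is given as a description with no p. Ctse was most like Coro1c (r = 0.939), Xylt1 (0.930) and Ptprc (0.927). Ctsh was most like AU020206 (0.925), Lrmda (0.919) and Daam1 (0.919), and Ctsb most like Fnip2 (0.940), Gm15345 (0.935) and Gsap (0.930). Ctsz was most like Grn (0.920), Lyz2 (0.883) and Ccdc58 (0.881), and Ctsc most like Cd74 (0.900), Gas2l3 (0.890) and Sh3bgrl (0.888). Ctsa was most like Bst2 (0.867), Ctsc (0.856) and H2-Q4 (0.853), the only case in which another cathepsin was among the 3 nearest. The nearest genes were Snap23 (0.838), Acot9 (0.825) and Gm20456 (0.816) for Ctsd, and Spata13 (0.861), Dph6 (0.848) and Cep295 (0.823) for Ctss. For Ctsl they were Mgmt (0.863), Ankrd17 (0.786) and Lhfpl2 (0.774). Between cathepsins, r was highest for Ctsb with Ctsz (0.869) and lowest for Ctsd with Ctse (0.281).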

How the data were processed

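Single-nucleus RNA-seq (10x 3' v3.1) was measured in 16 mouse hippocampus libraries. The deposited matrices hold UMI counts per gene for 33161829 barcodes, not normalized, and the submitters' processing notes name mm10 and Cell Ranger 3.1.0; the counting of introns and the use of strand are not given in the sources used here. Groups were taken from the labels, replicates were numbered in accession order, and nothing in the labels names the animals, so p-values measure the spread between these libraries, which may be technical.

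Nuclei had at least 500 UMIs, at least 300 genes and at most 5% mitochondrial UMIs. Doublets were scored against simulated ones (scanpy 1.11.5) and removed at 0.8% per 1000 nuclei. Nuclei were clustered by the Leiden method of igraph 0.11.9 (3000 variable genes, 50 components, 20 neighbours, resolution 1). Of the 84 clusters, 34 were named from at least 3 markers raised at least 2-fold. Clusters of over 50% doublets stayed unnamed. Because class names were rebuilt here, they may differ from the authors' own.

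Counts were summed per library and class, where every library held at least 20 nuclei, and tested with edgeR 4.0.16 (limma 3.58.1, R 4.3.3): TMM scaling, filterByExpr, a robust quasi-likelihood fit with 1 mean per group, and Benjamini-Hochberg adjustment over all genes of a class and comparison. DESeq2 1.42.0, RLE scaling, no filter on low counts, a batch term, each batch alone, a minimum of 1000 UMIs, doublets kept, free RNA subtracted and each library left out were alternatives. On simulated microglial counts, 19 of 50 genes with a 2-fold rise, 50 of 50 with a 4-fold rise and 6 of 7983 unchanged genes were called. So were 9 of 44 genes that fell to 0.5 times and 40 of 43 that fell to 0.25 times the level. The prior count was 2 for log2 CPM.

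The text names the 10 cathepsins, the 3 genes most like each tested one, and called genes of 7 lysosomal lists, at most 4 per list, of which 1 is not reported here; Cst3 was added after its values were seen. The members and lists were chosen with earlier results of these data known, and the split into batches was seen in the data. Gene positions are from GENCODE M21 (GRCm38), promoter sequences from RefSeq (GRCm38.p6). Intervals have a level of 95%, a count of 0 is given the limit of 3 counts, and both cover counting error only.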

Additional observations from a re-analysis of the deposited data

Results flagged for a closer look

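For each of 40 sets of 4 libraries (a cathepsin in the microglia of 1 group), the highest and lowest library were compared with the others by Dixon's test, which flags about 1 set in 20 by chance. In 2 sets a library stood apart. Ctsb read 285 CPM in Ch25h-/- Tau- replicate 4, against 175 to 182 in the other 3 libraries of that group. Ctsd read 993 CPM in Ch25h-/- Tau+ replicate 2, against 818 to 846 in the other 3.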

How the results depend on the processing

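No paired analysis was possible because the replicate numbers only follow accession order. The highest class of each cathepsin was the same with doublets kept, from 1000 UMIs and with free RNA subtracted. The 2 cathepsins called with tau in microglia of Ch25h+/+, Ctse among them, became 4 in batch 1 alone (Ctsb, Ctsc, Ctse, Ctsh), 0 in batch 2 alone, 4 with no filter on low counts (Ctsc, Ctse, Ctsh, Ctsz) and 3 with a batch term (Ctsc added). With 1 library left out they were 1 to 4, with 4 (Ctsb and Ctsc added) without Ch25h+/+ Tau+ replicate 3. Calls over all genes also moved, from 200 of 8455 to 422 of 9773 in batch 1 alone and 0 of 7568 in batch 2 alone. They were 527 of 21458 with no filter, 433 of 8455 with a batch term and 544 of 9121 without that replicate. The 2 cathepsins called in Ch25h-/- became 5 in batch 1 alone (Ctsa, Ctsb, Ctse, Ctsh, Ctsz), 0 in batch 2 alone, 5 with no filter (Ctsa, Ctsc, Ctse, Ctsh, Ctsz) and 3 by DESeq2 (Ctsb added). The other settings that kept all libraries called Ctse and Ctsh in both genotypes. With 1 library left out, the cathepsins called in Ch25h-/- were 1 to 4, with 4 without Ch25h+/+ Tau+ replicate 3 (Ctsa and Ctsb added) or Ch25h-/- Tau+ replicate 3 (Ctsb and Ctsz added). Over all genes, 134 of 8455 became 399 of 9773 in batch 1 alone, 435 of 21458 with no filter and 193 of 21458 by DESeq2. Without these replicates in turn, 322 of 9121 and 363 of 8281 genes were called. Outside microglia, no filter called 1 pair for tau in Ch25h+/+, Ctss in oligodendrocytes. The counts for Ch25h loss and the interaction were 0 under every alternative run. With a batch term, the log2 fold changes of Ctsh were 0.76 and 0.74, both called. Those of Ctse were 3.76 and 3.09, also called. Because Ctse passed the filter on low counts only through Tau+ libraries, its calls in fits with that filter are a description.

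Signs turned only for changes that were not called. For tau in Ch25h+/+, Ctsd was -0.11 in batch 2 alone and -0.10 to 0.16 with 1 library left out, and Ctsl -0.15 to 0.50. For Ch25h loss, Ctsh was -0.0028 in Tau+ in batch 1 alone, and Ctse -0.57 in Tau- in batch 1 alone and -0.73 to 0.63 with 1 library left out. In the interaction, Ctse was 0.016 in batch 1 alone and -1.21 to 0.16 with 1 library left out, and Ctsh 0.11 in batch 2 alone and -0.089 to 0.067. The cause was not tested. The alternatives for Mitf, Atp6v1b2 and Gnptab were chosen after seeing the data. Batch 2 alone called none of these 3 (adjusted p = 0.572, 0.344 and 0.292). Depth limits Ctsk, with 18 UMIs in microglia and no test, and Ctse, with 4 and 5 UMIs in the 2 Tau- groups.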

Other observations

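Border-associated macrophages had too few nuclei per library for a test (83 to 150 per group), and their values by group are summed over libraries, with 95% exact Poisson intervals. These intervals cover counting error only and not the spread between libraries, which held 6 to 58 of these nuclei each. Ctsz, Ctsc, Ctsh and Ctse are given, and the other cathepsins are not. Ctsz read 141 CPM (99.2 to 194) in Ch25h+/+ Tau+ and 309 (216 to 428) in Ch25h+/+ Tau-, and 126 (77.2 to 195) and 157 (107 to 223) in the groups labelled Ch25h-/- Tau+ and Tau-. Ctsc read 663 CPM (568 to 769) against 902 (737 to 1091) in Ch25h+/+, and 638 against 696 in Ch25h-/-. Ctsh, which rose with tau in microglia, read 221 (168 to 286) and 197 (125 to 296) CPM in these macrophages in Ch25h+/+, and 196 and 198 in Ch25h-/-; whether the 2 cell classes differ in this was not tested. Ctse had 13 UMIs with tau and 7 without in Ch25h+/+, and 8 and 4 in Ch25h-/-.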
